A study of Mus musculus with 10 samples.

Results

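Vascular endothelial growth factors (VEGF) and their receptors were followed across a mouse glioma model as 7 genes, taken by symbol from the 23230 features listed in 10 RNAseq libraries. The 4 ligands were *Vegfa*, *Vegfb*, *Vegfc* and *Pgf* (placental growth factor), and the 3 receptors were *Flt1* (VEGFR-1), *Kdr* (VEGFR-2) and *Flt4* (VEGFR-3). All cultures descended from cerebral cortex astrocytes of C57BL/6 mice lacking *Ink4a/Arf* (p16/p19), taken at postnatal day 5 and infected with a retrovirus for human EGFRvIII, a constitutively active EGFR. AstroEGFR (3 libraries, 1 from each of 3 astrocyte batches) were these cells in medium with serum. PT (4 libraries) were glioma propagating cells grown out of primary tumours that AstroEGFR formed in CD1 Nude mice, kept in serum-free medium with EGF and FGF2. AstroEGFR_Zfp423 (3 libraries, 1 per batch) carried a second vector overexpressing *Zfp423*, a zinc-finger transcription factor. Each library came from 1 culture below passage 10. Batch 1 gave rise to both PT1 and PT4, batch 2 to PT2 and batch 3 to PT3. The tumour step and the change of medium cannot be told apart in the PT cultures.

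VEGF ligands are secreted dimers that bind receptor tyrosine kinases, chiefly on endothelial cells. VEGFA signals mainly through KDR to drive endothelial growth and permeability, whereas FLT1 binds VEGFA, VEGFB and PGF tightly with weaker kinase activity, and VEGFC signals through FLT4 in lymphatic vessels. Transcription of *Vegfa* is induced by hypoxia-inducible factors (HIF), and high VEGFA is a known trait of malignant gliomas with abundant vessels.

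The values were FPKM, fragments scaled to transcript length and to mapped fragments, a scale meant to allow levels of different genes to be set side by side. The deposited values held no counts. FPKM summed to between 361102 and 860068 per library, and 6200 to 9155 features were listed at 0, most in AstroEGFR 3 (8417) and PT3 (9155). Relative to PT1, the depth estimated from the steps between low values was 0.0712 in AstroEGFR 3 and 0.506 or more in the 7 other libraries that gave an estimate, while PT3 gave none. *Gapdh*, which every cell uses, was listed at 0.0106 to 50.1 FPKM, so values near 0 are stated as listed and do not show that a transcript was absent. For the same reason, orders and shares of different genes hold for the listed values only. *Zfp423* was at 3.25 to 4.30 FPKM in AstroEGFR and at 15.7, 9.73 and 105 FPKM in AstroEGFR_Zfp423 1, 2 and 3. Of 8 astrocyte markers, all 8 reached 1 FPKM in each AstroEGFR library, 7 to 8 in PT and 5 to 8 in AstroEGFR_Zfp423. AstroEGFR_Zfp423 3 stood apart from the other two libraries of its label and was nearer to PT in several genes given here. *Prkcb* was at 61.1 FPKM in it, within the PT range, against 6.73 and 6.78 FPKM in the other two, and *Thbs1* at 14.5 FPKM against 277 and 303 FPKM. Libraries 1 and 2 in turn differed in microglia and macrophage markers, which summed to 1307 and 859 FPKM there and to 1.28 FPKM in library 3. In AstroEGFR and PT these summed to at most 40.8 FPKM. The 8 astrocyte markers summed to 199 and 59.4 FPKM in libraries 1 and 2, against 904 FPKM in library 3. Whether the 3 libraries are of the same kind is not known. Values are therefore also given without library 3 and, for some genes, without libraries 1 and 2.

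The promoters of *Vegfa* and *Vegfb* are shown because these were the most highly listed genes of the group, each as the 250 bases before the most upstream RefSeq start in assembly GRCm38.p6, minus strand. The windows are chr17:46032378-46032627 for *Vegfa* and chr19:6987652-6987901 for *Vegfb*, written 5′ to 3′ in the direction of the gene. Capitals mark the GC box GGGCGG or its reverse complement CCGCCC, a recognition sequence of SP1-type factors.
Vegfa: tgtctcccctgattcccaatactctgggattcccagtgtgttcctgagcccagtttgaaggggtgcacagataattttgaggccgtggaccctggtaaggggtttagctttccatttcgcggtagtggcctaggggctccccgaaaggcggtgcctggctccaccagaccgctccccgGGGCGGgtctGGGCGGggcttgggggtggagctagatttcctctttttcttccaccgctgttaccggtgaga
Vegfb: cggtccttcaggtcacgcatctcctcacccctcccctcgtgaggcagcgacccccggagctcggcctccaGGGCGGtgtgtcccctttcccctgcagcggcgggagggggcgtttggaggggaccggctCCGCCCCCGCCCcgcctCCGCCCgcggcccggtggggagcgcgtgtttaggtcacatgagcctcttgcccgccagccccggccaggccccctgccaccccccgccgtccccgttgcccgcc
The *Vegfa* window held 2 GC boxes and the *Vegfb* window 4. RefSeq windows were found for all 7 genes, and each of the 7 held at least 2 GC boxes. Of all 32851 mouse promoter windows of this length, not limited to 1 start per gene, 32.7% held 1 or more. The share of windows with 2 or more was not counted, so the members' count has no like background. The core of the hypoxia response element, ACGTG or GCGTG on either strand, was found in 4 of the 7 windows (*Vegfb*, *Pgf*, *Flt1* and *Kdr*) and in 38.6% of all windows. The *Vegfa* window held none, and bases further upstream were not searched. A match of letters describes these 250 bases and shows no binding.

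*Vegfa* was the highest of the 7 genes in 10 of 10 libraries, and with all libraries of a comparison in the fit it was the 1 gene of the group that passed the test. In AstroEGFR 1, 2 and 3 it was at 20.0, 23.0 and 27.1 FPKM. In PT1, PT2, PT3 and PT4 it was at 91.3, 216, 162 and 93.5 FPKM. Every PT library thus lay above every AstroEGFR library, and the 2 PT cultures of batch 1 were close to each other and below those of batches 2 and 3. In AstroEGFR_Zfp423 1, 2 and 3 *Vegfa* was at 30.4, 78.4 and 126 FPKM, above the AstroEGFR range in all 3 libraries. The third of these lay within the PT range and the other two below it. *Vegfa* exceeded 81.8% to 85.1% of all features in AstroEGFR, 96.8% to 98.8% in PT and 87.5% to 97.5% in AstroEGFR_Zfp423.

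*Vegfb*, which binds FLT1 but not KDR, was second among the 7 genes in 8 of 10 libraries. It was at 19.4, 12.5 and 18.4 FPKM in AstroEGFR 1 to 3, while PT1 to PT4 listed 40.4, 15.6, 43.7 and 54.9 FPKM. PT2 fell inside the AstroEGFR range and the other PT libraries were above it. AstroEGFR_Zfp423 1 to 3 listed *Vegfb* at 11.5, 8.22 and 19.9 FPKM, overlapping AstroEGFR. In AstroEGFR 1 the levels of *Vegfa* and *Vegfb* were nearly equal, whereas in PT2 *Vegfa* made up 88.8% of the summed FPKM of the 4 ligands and *Vegfb* 6.42%. The *Vegfa* share was 35.9% to 62.6% in AstroEGFR, 61.7% to 88.8% in PT and 55.9% to 85.2% in AstroEGFR_Zfp423.

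*Vegfc*, the main lymphatic ligand, was low and uneven. AstroEGFR 1 to 3 listed it at 0.599, 0.825 and 6.17 FPKM, and PT1 to PT4 at 1.34, 9.75, 4.09 and 1.06 FPKM. AstroEGFR_Zfp423 1 to 3 had 2.03, 9.02 and 0.916 FPKM. The high libraries were AstroEGFR 3, PT2 and AstroEGFR_Zfp423 2, and the 3 groups overlapped. *Pgf*, a ligand of FLT1, was at 3.49, 0.378 and 23.8 FPKM in AstroEGFR and at 1.5, 1.88, 0.256 and 2.23 FPKM in PT. AstroEGFR_Zfp423 1 to 3 had 10.4, 10.8 and 1.05 FPKM of *Pgf*. The other VEGF ligand gene, *Figf* (*Vegfd*), was at 0.703, 0.574 and 5.28 FPKM in AstroEGFR, at 0.0205 to 0.252 FPKM in PT and at 2.95, 10.3 and 0.0689 FPKM in AstroEGFR_Zfp423.

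The 3 libraries highest in *Pgf* and in *Figf* were AstroEGFR 3 and AstroEGFR_Zfp423 1 and 2, which were also the 3 highest in fibroblast and meningeal markers. The 7 listed markers of those cells summed to 5135, 4494 and 6224 FPKM there, and to 15.8 to 506 FPKM in the other libraries. Among them, *Pdgfra* and collagen genes can also be expressed by glial or cultured cells. The part of such cells in the *Pgf* and *Figf* values was not tested. In bulk samples, fewer cells of a type and less RNA per cell cannot be told apart.

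Of the receptors, only *Flt1* reached 1 FPKM in most libraries. It was at 0.901, 2.95 and 3.34 FPKM in AstroEGFR 1 to 3. In PT1 and PT4, both of batch 1, it was at 10.4 and 9.71 FPKM, and in PT2 and PT3 at 0.508 and 0.343 FPKM. The PT values therefore lay on both sides of the AstroEGFR range, with PT1 and PT4 above it and PT2 and PT3 below. The 6 oligodendrocyte lineage markers divided the PT libraries in the same way, with sums of 1356 and 1648 FPKM in PT1 and PT4 and of 145 and 130 FPKM in PT2 and PT3, against 61.1 to 222 FPKM in AstroEGFR. Batch and these markers cannot be told apart among the PT libraries, and their part in the *Flt1* values was not tested. In AstroEGFR_Zfp423 the markers summed to 28.2 to 160 FPKM. AstroEGFR_Zfp423 1 to 3 listed *Flt1* at 1.02, 12.1 and 3.91 FPKM.

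*Kdr*, the receptor through which VEGFA mainly acts, was at 0.0706, 0.268 and 0.0578 FPKM in AstroEGFR. PT1 to PT4 listed 0.00634, 0.144, 0 and 0.0920 FPKM of it, and AstroEGFR_Zfp423 1 to 3 listed 0.157, 0.443 and 0.0296 FPKM. No library reached 1 FPKM, and *Kdr* was the lowest of the 7 genes in 9 of 10 libraries. *Flt4*, the receptor of VEGFC and VEGFD, was at 2.38, 0.490 and 1.13 FPKM in AstroEGFR and at 0.0433, 0.211, 0.0206 and 0.173 FPKM in PT. The highest PT value was thus less than the lowest AstroEGFR value. In AstroEGFR_Zfp423 1 to 3 it was at 0.855, 0.125 and 0.138 FPKM, in each case below the AstroEGFR library of the same batch.

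Of 17 endothelial markers, 9 stayed below 1 FPKM in all 10 libraries and 8 reached it in at least 1. Of those below, *Pecam1* was at most 0.137 FPKM, *Tie1* at most 0.0190 FPKM and *Cldn5* at most 0.0129 FPKM, and *Sox17* was listed at 0 in all 10. Of those above, *Erg* was at 0.604 to 8.32 FPKM in AstroEGFR and at most 0.116 FPKM in PT. *Cdh5* was at 0.109 to 1.24 FPKM in AstroEGFR and at most 0.0306 FPKM in PT, and *Tek* at 0.0823 to 0.852 FPKM and at most 0.0943 FPKM. *Plvap* was higher in every PT library, at 13.3 to 102 FPKM against 2.77 to 4.85 FPKM in AstroEGFR, while *Ramp2* overlapped, at 1.19 to 21.0 FPKM against 0.768 to 4.13 FPKM. Per library 2 to 7 of the markers reached 1 FPKM, and the sum of all 17 was 9.49 to 26.7 FPKM in AstroEGFR, 22.7 to 113 FPKM in PT and 11.8 to 17.7 FPKM in AstroEGFR_Zfp423. The sums in PT were mostly *Plvap* and *Ramp2*, while *Erg*, *Cdh5* and *Tek* were lower in PT on average, as *Flt4* was. In the test of PT against AstroEGFR given below, 4 of the 17 were above the filter and 0 passed (*Plvap*, limma adjusted p = 0.125). The part of endothelial cells in the VEGF values was not tested.

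**Figure D1:**
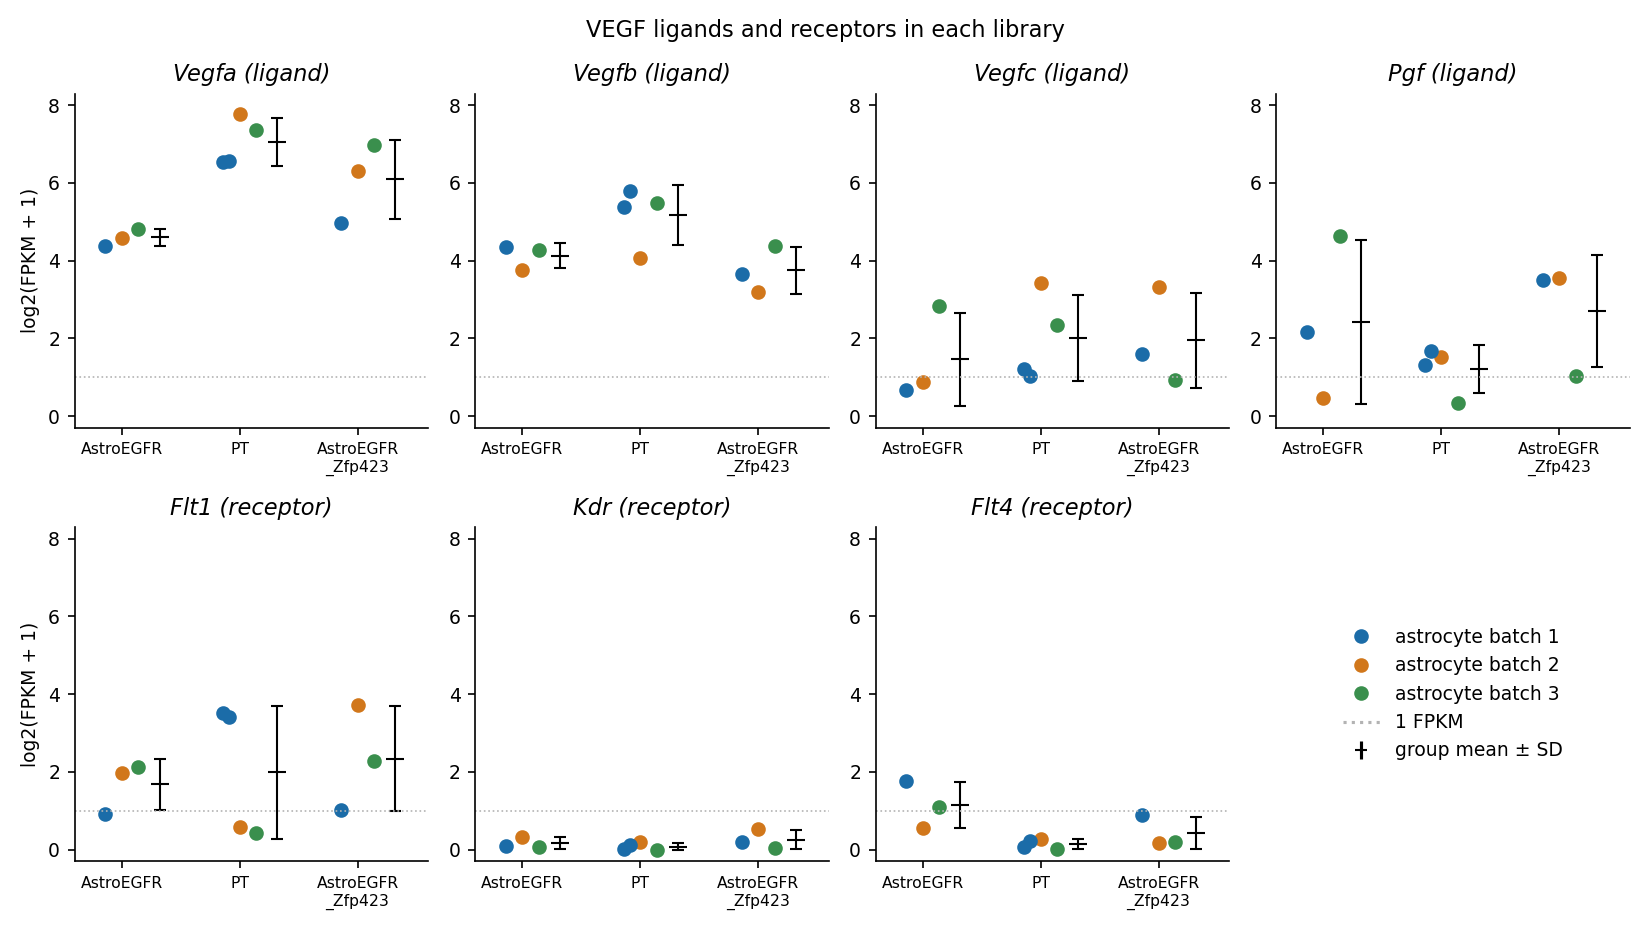
Level of each VEGF ligand and receptor on the log2(FPKM + 1) scale, with 1 point per library coloured by astrocyte batch, black bars for the group mean ± SD (n = 3, 4 and 3) and a dotted line at 1 FPKM. *Vegfa* stands at 20.0 to 27.1 FPKM in AstroEGFR and at 91.3 to 216 FPKM in PT, *Flt1* in PT splits into batch 1 and the rest, and *Kdr* stays below 1 FPKM throughout.

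PT was compared with AstroEGFR to ask what changed between the astrocytes and the cells of the tumours they formed. The test ran over 12261 features whose mean reached 1 FPKM, on log2(FPKM + 1) with limma and Benjamini-Hochberg adjustment at a threshold of 0.05. Of the 5 VEGF genes above this filter, 1 passed, *Vegfa*. Over all features tested 1.24% passed, and 0.318% passed as higher in PT. On the log2(FPKM + 1) scale *Vegfa* rose to 7.05 ± 0.61 (SD, n = 4) in PT, against 4.60 ± 0.21 (SD, n = 3) in AstroEGFR, a log2 fold change of 2.45 (SE 0.36, limma adjusted p = 0.0258). The mean FPKM of PT was 6.03-fold that of AstroEGFR. An exact two-sided permutation test gave p = 0.0286, the smallest that 3 libraries against 4 allow. It took PT1 and PT4, both of batch 1, as independent, although the libraries come from only 3 batches. With PT1 and PT4 averaged, the log2 fold change was 2.62 (SE 0.37, limma adjusted p = 0.0431), in a fit in which 61 features passed. The limma call was lost without AstroEGFR 1 (adjusted p = 0.134), AstroEGFR 2 (0.0707), AstroEGFR 3 (0.0811) or PT3 (0.0595), without both AstroEGFR 3 and PT3 (0.148) and with all 10 libraries in 1 fit (0.0575). The log2 fold change stayed between 2.22 and 2.63 in all 15 alternatives.

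Within batches, *Vegfa* in PT1 and PT4 was 4.56-fold and 4.68-fold that of AstroEGFR 1. PT2 had 9.42-fold the level of AstroEGFR 2, and PT3 had 5.97-fold that of AstroEGFR 3. With the batch as a replicate block, the limma adjusted p of *Vegfa* was 0.0124, while 475 features passed in place of 152, 1.19% of all features as higher and 2.68% as lower.

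*Vegfb* was higher than in the parent culture in 4 of 4 PT libraries, at 1.25-fold to 2.82-fold. Its difference of 1.05 on the log2 scale (SE 0.43) missed the threshold (limma adjusted p = 0.341, exact permutation p = 0.114). The differences of *Vegfc* (log2 fold change 0.55, SE 0.75), *Pgf* (-1.20, SE 0.90) and *Flt1* (0.31, SE 0.89) did not pass, with limma adjusted p-values of 0.824, 0.632 and 0.926. *Pgf* took the other sign, at 0.20, without AstroEGFR 3 and PT3. For *Flt1*, the difference within batch was 2.58 and 2.50 on the log2(FPKM + 1) scale in PT1 and PT4, and -1.39 and -1.69 in PT2 and PT3. The median log2 fold change of the 5 genes was 0.55, against 0.03 over all features tested.

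*Kdr* and *Flt4* were below the filter. In the fit without a filter, over 18579 features, *Flt4* differed by -0.99 on the log2 scale (SE 0.26, limma adjusted p = 0.200) and *Kdr* by -0.09 (SE 0.08, limma adjusted p = 0.715), neither past the threshold. *Flt4* gave the smallest exact permutation p, 0.0286, again with PT1 and PT4 taken as independent. Among all features listed above 0, 5.27% were higher in every PT library than in every AstroEGFR library, as *Vegfa* was, and 7.75% were lower in every PT library, as *Flt4* was. Both shares are the background against which the absence of overlap is read.

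**Figure D2:**
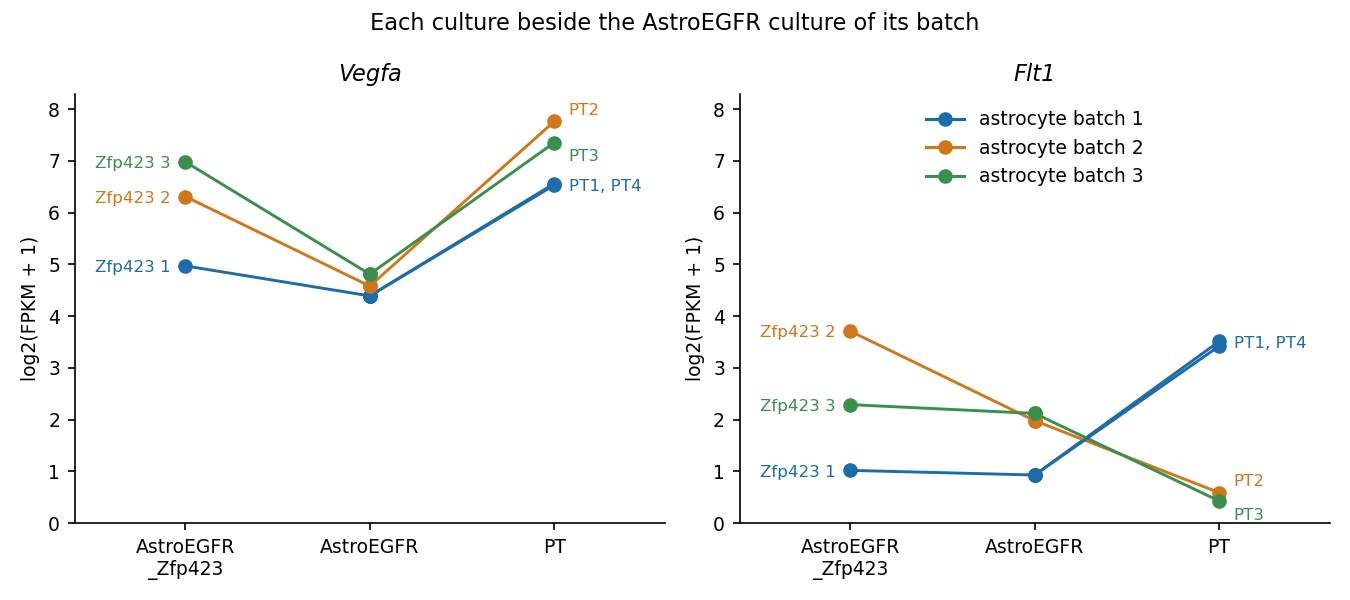
*Vegfa* (left) and *Flt1* (right) on the log2(FPKM + 1) scale, with lines from each AstroEGFR culture to the AstroEGFR_Zfp423 and PT cultures of its batch. *Vegfa* goes up along all 7 lines, whereas *Flt1* goes up to PT1 and PT4 (2.58 and 2.50) and down to PT2 and PT3 (-1.39 and -1.69).

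AstroEGFR_Zfp423 was compared with AstroEGFR, within batches, for the effect of *Zfp423* overexpression. None of 12366 features passed in limma with the batch as a block (0%, with 913 at an unadjusted p below 0.05), so 0 of the 5 VEGF genes tested did. *Vegfa* was at 6.09 ± 1.02 (SD, n = 3) against 4.60 ± 0.21 (SD, n = 3) on the log2(FPKM + 1) scale, a log2 fold change of 1.49 (SE 0.38, limma adjusted p = 0.628, unadjusted p = 0.0159). Without AstroEGFR_Zfp423 3 the log2 fold change was 1.15 (SE 0.39, limma adjusted p = 0.355). *Vegfa* was 1.52-fold, 3.41-fold and 4.64-fold the level of the parent culture in batches 1, 2 and 3. The groups did not overlap, which held for 4.48% of features in this direction, and 12.7% of features were higher in all 3 batches. The exact sign-flip permutation test over 3 pairs gave p = 0.25, the smallest it allows. In batches 2 and 3 the deviations from the group mean correlated more with AstroEGFR of another batch than of their own, so these pairs are uncertain. With no block, the limma adjusted p of *Vegfa* was 0.728. *Flt1* was above the parent culture by 0.09, 1.73 and 0.18 on the log2(FPKM + 1) scale in batches 1, 2 and 3, a log2 fold change of 0.67 (SE 0.48, limma adjusted p = 0.717). It was 0.13 without AstroEGFR_Zfp423 2 and likewise without AstroEGFR 2. *Vegfb* (-0.38, SE 0.27), *Vegfc* (0.49, SE 0.94) and *Pgf* (0.28, SE 1.41) gave limma adjusted p-values of 0.712 to 0.966. Without AstroEGFR_Zfp423 3, *Vegfc* differed by 1.69 and *Pgf* by 2.22 (limma adjusted p = 0.333 and 0.289). In the same fit *Vegfb* differed by -0.63 and *Flt1* by 0.91 (limma adjusted p = 0.415 and 0.503). With all libraries and no filter, *Flt4* differed by -0.72 (SE 0.17, limma adjusted p = 0.704), which did not pass.

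The 3 AstroEGFR_Zfp423 libraries were not alike. The 8 astrocyte markers summed to 199, 59.4 and 904 FPKM in libraries 1 to 3, against 509 to 1048 FPKM in AstroEGFR. In the fit against AstroEGFR 0 of the 8 passed, with 3 at an unadjusted p below 0.05, and their median log2 fold change was -1.77. In libraries 1 and 2 the 10 markers of microglia and macrophages, which can express *Flt1*, summed to 1307 and 859 FPKM, and all 10 reached 1 FPKM. They summed to 1.28 FPKM in library 3 and to 2.47 to 40.8 FPKM in AstroEGFR and PT. *Flt1* was 1.02 FPKM in library 1 and 12.1 FPKM in library 2 at these marker levels, and their part in it was not tested. *Vegfa* was highest in library 3, which stood apart from the other two. Without libraries 1 and 2, and so with no pairs, the log2 fold change of *Vegfa* was 2.39 with limma, not past the threshold (adjusted p = 0.502).

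PT was set against AstroEGFR_Zfp423 as well, although each of the 3 comparisons shares its libraries with the others. In limma 2 of 12412 features passed (0.0161%), and 0 of the 5 VEGF genes, of which 1 had an unadjusted p below 0.05, *Vegfb*, as did 16% of all features. Its level was 5.18 ± 0.77 (SD, n = 4) in PT and 3.75 ± 0.60 (SD, n = 3) in AstroEGFR_Zfp423 on the log2(FPKM + 1) scale, a log2 fold change of 1.43 (SE 0.47, limma adjusted p = 0.257, exact permutation p = 0.0857). The difference of *Vegfb* was 1.75 without AstroEGFR_Zfp423 3 (limma adjusted p = 0.129), and 0.79 when AstroEGFR_Zfp423 3 alone stood for its group. *Vegfa* differed by 0.96 (SE 0.53, limma adjusted p = 0.418), by 1.41 without AstroEGFR_Zfp423 3 (limma adjusted p = 0.228), and by 0.07 when AstroEGFR_Zfp423 3 alone stood for its group. *Pgf* differed by -1.49 (SE 0.69, limma adjusted p = 0.343). It was -2.32 without AstroEGFR_Zfp423 3 and passed (limma adjusted p = 0.0380), in a fit in which 629 features passed in place of 2. The AstroEGFR_Zfp423 libraries left in that fit, 1 and 2, were those high in fibroblast and microglial markers, whose part was not tested. The difference was 0.18 when AstroEGFR_Zfp423 3 alone stood for its group. *Vegfc* (0.06, SE 0.76) and *Flt1* (-0.35, SE 1.01) had limma adjusted p-values of 0.979 and 0.897. Without AstroEGFR_Zfp423 3 they differed by -0.45 and -0.38 (limma adjusted p = 0.817 and 0.905).

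**Figure D3:**
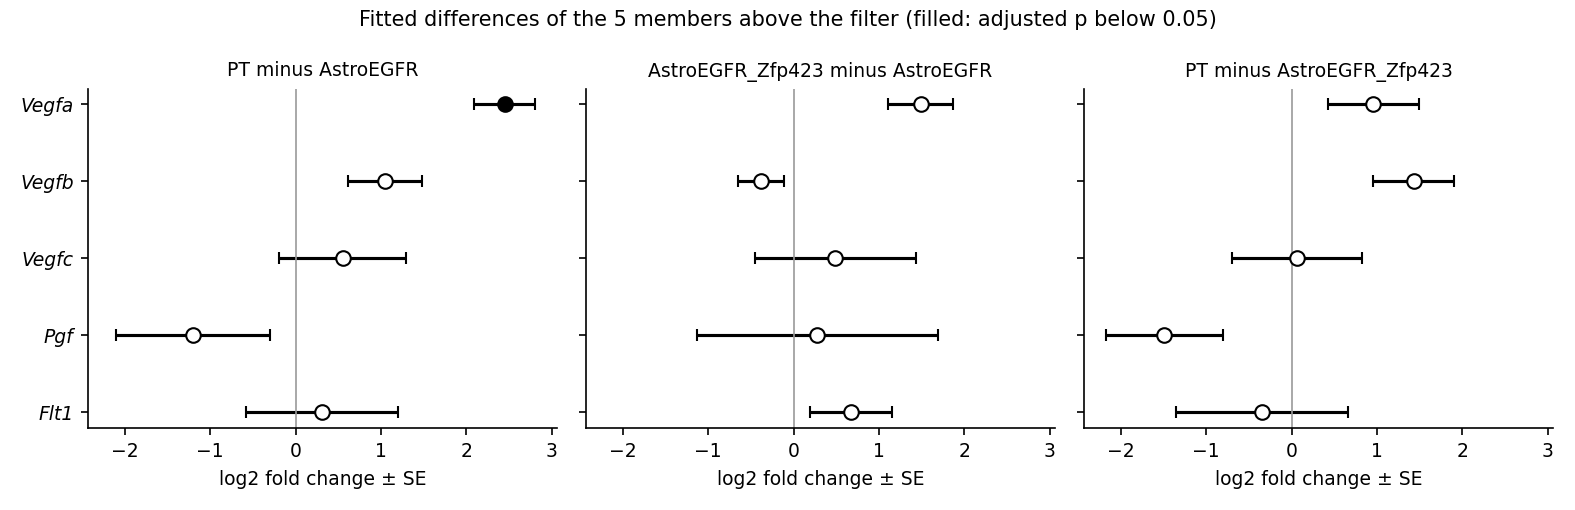
Fitted log2 fold changes ± SE of the 5 genes whose mean reached 1 FPKM, in the 3 comparisons, which share libraries. The filled point, *Vegfa* in PT minus AstroEGFR (2.45, SE 0.36), is the 1 difference with an adjusted p below 0.05.

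Around the 7 genes, co-receptors and extracellular modulators of VEGF were followed as a list of 14, of which 13 were tested in PT against AstroEGFR. None passed in the higher direction and 2 in the lower one, against 0.318% and 0.922% of all features. *Thbs1*, thrombospondin 1, an inhibitor of angiogenesis, fell from 352, 116 and 314 FPKM in AstroEGFR to 0.382, 0.986, 18.5 and 0.581 FPKM in PT (log2 fold change -6.28, SE 0.94, limma adjusted p = 0.0274). *Ctgf* (*Ccn2*), a matrix protein that can bind VEGFA, fell from 297, 82.3 and 370 FPKM to 4.56, 2.78, 20.0 and 4.07 FPKM (-4.93, SE 0.72, limma adjusted p = 0.0260). Among PT libraries, PT3 held the most of both. Of the 7 fibroblast and meningeal markers 0 passed, or 2 with the batch as a replicate block, both lower in PT (*Col1a2*, limma adjusted p = 0.0206, and *Col1a1*, 0.0380), against 2.68% of all features lower with the block. The 7 had a median log2 fold change of -3.59 and summed to 295 to 5135 FPKM in AstroEGFR and 15.8 to 370 FPKM in PT. Their part in these 2 genes was not tested. In AstroEGFR_Zfp423 1 to 3, *Thbs1* was at 277, 303 and 14.5 FPKM and *Ctgf* at 166, 261 and 23.7 FPKM, so that library 3 stood apart from the other two for these genes. Both are also known to respond to serum. The median of the list was -0.93, against 0.03 over all features.

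The neuropilins, co-receptors of VEGF named here outside the rule for their role, did not pass. *Nrp1* was at 36.2, 46.2 and 72.0 FPKM in AstroEGFR, at 15.3, 37.8, 50.5 and 14.2 FPKM in PT and at 60.0, 47.1 and 37.0 FPKM in AstroEGFR_Zfp423. It was thus listed above *Flt1*, *Kdr* and *Flt4* in every library. *Nrp2* was at 2.63, 5 and 15.2 FPKM in AstroEGFR and at 0.846 to 4.21 FPKM in PT. In AstroEGFR_Zfp423 1 to 3 it was at 31.5, 32.3 and 0.319 FPKM, 12-fold and 6.46-fold the parent culture in batches 1 and 2 and below it in batch 3. As for *Pgf* and *Figf*, the 3 libraries highest in *Nrp2* (AstroEGFR 3 and AstroEGFR_Zfp423 1 and 2) were the 3 highest in fibroblast and meningeal markers, with sums of 5135, 4494 and 6224 FPKM. AstroEGFR_Zfp423 1 and 2 also held microglia and macrophage markers at sums of 1307 and 859 FPKM, and the part of these cells in the *Nrp2* values was not tested. The PT against AstroEGFR log2 fold change was -0.93 for each, with limma adjusted p-values of 0.478 and 0.558.

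HIF factors and their regulators were 9 genes, and 0 of 8 tested passed in either direction in limma. At an unadjusted p below 0.05 were 4 of them, against 13.6% of all features. Of these, *Hif1a* (log2 fold change 1.02), *Vhl* (0.66) and *Egln3* were higher in PT and *Epas1* (-1.46) was lower. The largest difference was that of *Egln3*, a prolyl hydroxylase that marks HIF for degradation and is itself a HIF target (log2 fold change 1.68, SE 0.42, limma adjusted p = 0.125). Among 20 other HIF target genes, 1 passed and was higher in PT, against 0.318% of all features, 16 had a positive log2 fold change and 4 a negative one, and 10 had an unadjusted p below 0.05, against the same 13.6% of all features. *Pfkfb3*, a regulator of glycolysis, was at 3.90, 4.92 and 4.18 FPKM in AstroEGFR and at 12, 13.8, 15.2 and 12.3 FPKM in PT. It rose by a log2 fold change of 1.42 (SE 0.22, limma adjusted p = 0.0285). *Ddit4*, an inhibitor of mTORC1 signalling, had the largest difference of the list at 2.83 (SE 0.56, limma adjusted p = 0.0666). With the batch as a replicate block 4 of the 20 passed, all higher in PT, against 1.19% of all features. They were *Pfkfb3* (limma adjusted p = 0.0219), *Pdk1* (0.0290), *Vldlr* (0.0331) and *Ddit4* (0.0375). The list median was 1.04. Within batches, 16, 13, 17 and 14 of the 20 genes were higher in PT1 to PT4 than in the parent culture, that is 80%, 65%, 85% and 70%, against 49.2% to 52.4% of all features. The median differences of the 20 genes were 1.44, 0.39, 1.12 and 1.02 on the log2(FPKM + 1) scale.

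In AstroEGFR_Zfp423 the same 20 HIF target genes had a median log2 fold change of 0.31, against 0.02 over all features, and 0 passed in limma, with 4 at an unadjusted p below 0.05, against 7.38% of all features. *Vldlr*, a lipoprotein receptor, had the largest difference at 2.31 (SE 0.28, limma adjusted p = 0.628). Within batches 1, 2 and 3, 11, 15 and 14 of the genes were above the parent culture (55%, 75% and 70%), against 52.4%, 49.8% and 49.9% of all features. The median differences were 0.11, 0.74 and 0.87, and batch 1 was close to the share over all features.

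Of 23 genes of signalling downstream of VEGF receptors, 21 were tested in PT against AstroEGFR and 1 passed, in the higher direction, as did 0.318% of all features. *Prkcb*, a protein kinase C isoform, was at 0.486, 4.64 and 0.0878 FPKM in AstroEGFR and at 55.1, 93.0, 71.5 and 66.5 FPKM in PT (log2 fold change 5.09, SE 0.55, limma adjusted p = 0.0103). It was at 6.73, 6.78 and 61.1 FPKM in AstroEGFR_Zfp423 1 to 3. The median of the list was -0.08. *Prkcb* acts in many pathways other than that of VEGF.

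**Figure D4:**
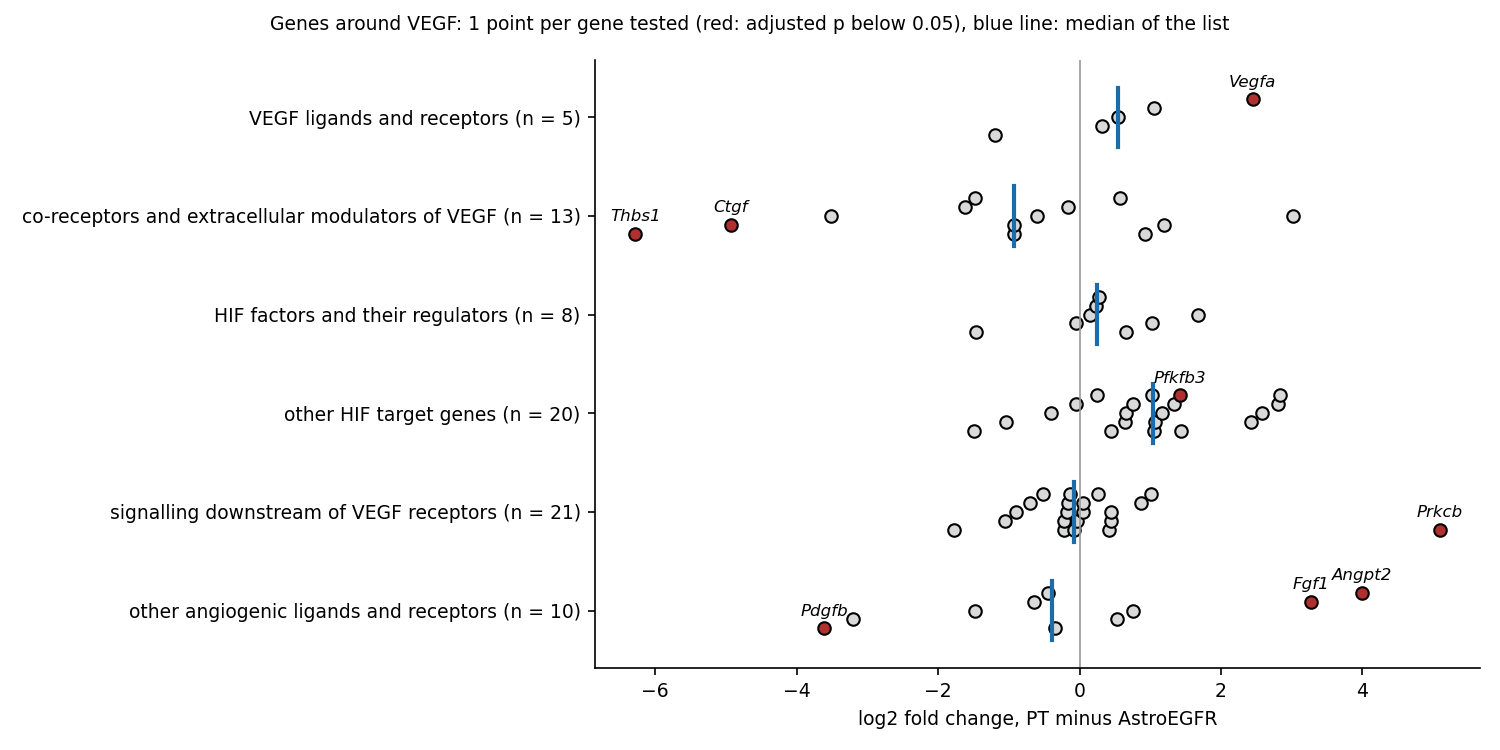
Log2 fold changes of PT minus AstroEGFR for 6 lists of genes around VEGF, with 1 point per gene tested, red points for an adjusted p below 0.05 and a blue line at the median of each list. The HIF target genes have a median of 1.04 with *Pfkfb3* past the threshold, and the co-receptors and modulators a median of -0.93 with *Thbs1* and *Ctgf* past it.

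The genes whose profile was most like that of each VEGF gene were found by Pearson's r of log2(FPKM + 1) over the 10 libraries, among 11663 features with at least 1 FPKM in 5 or more libraries. This is a description over 10 libraries that share batches. For *Vegfa* they were *Coq5* (0.977), *Trub1* (0.957) and *Apba3* (0.944), and *Coq5* ranged only from 12.4 to 22.7 FPKM. For *Vegfb* they were *Hnrnpa3* (0.979), *Qdpr* (0.973) and *Fundc2* (0.965). The nearest profiles were that of *Fbxo4* for *Vegfc* (0.949), that of *A430107O13Rik* for *Pgf* (0.959) and that of *Det1* for *Flt1* (0.969).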

How the data were processed

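RNAseq libraries of 10 cultures were used, 3 AstroEGFR, 4 PT and 3 AstroEGFR_Zfp423. The authors deposited 1 matrix of FPKM, and the submitters' processing notes name TopHat 1.3, Cuffnorm and mm9. The sample labels name a TruSeq kit and a lentiviral *Zfp423* vector, where the methods describe ribosomal RNA removal, stranded libraries and a retroviral vector. Depth is unknown without counts, and a low FPKM is imprecise. Features averaging at least 1 FPKM over the libraries compared were fitted on log2(FPKM + 1) with limma 3.58.1 (R 4.3.3; empirical Bayes with trend, Benjamini-Hochberg threshold 0.05), without a block for PT and with the batch as a block for AstroEGFR_Zfp423 against AstroEGFR. The procedure was tested on simulated data. FPKM fold changes on this scale understate those of low genes. P-values measure the spread between cultures.

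The members and lists were chosen with earlier results of these data known. Every member is named, and, for PT against AstroEGFR, of each list of VEGF-related genes the genes past the threshold (at most 5) and that with the largest absolute log2 fold change. Cell type markers are given by counts and sums, and some single markers are also named, outside a rule. Of the endothelial, lymphatic, neuronal and oligodendrocyte lineage markers, 0 of 4, 0 of 2, 0 of 2 and 0 of 5 tested passed in PT against AstroEGFR. Their median log2 fold changes were 0.43, -0.04, 1.41 and 1.72. *Hras* was not matched by symbol and was not used. Batches pair libraries because the study derived PT and AstroEGFR_Zfp423 from that batch of astrocytes. Deviations from the group mean correlated between PT and AstroEGFR of the same batch at 0.35 to 0.50, and between AstroEGFR_Zfp423 and AstroEGFR at 0.24, -0.11 and -0.26. AstroEGFR_Zfp423 2 correlated more with AstroEGFR 3 (0.31), and AstroEGFR_Zfp423 3 more with AstroEGFR 2 (0.22), than with their own batch. The pairs of batches 2 and 3 thus rest on the study's account and not on these profiles. Exact permutation tests (two-sided) of single genes used scipy 1.17.1. Alternatives were a pseudocount of 0.1, no filter, median-ratio scaling, no trend, all 10 libraries in 1 fit, PT1 and PT4 averaged, the block added or removed, and each library left out. Fits without AstroEGFR 3 and PT3, or without AstroEGFR_Zfp423 1 and 2, were added after the values were seen.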

Additional observations from a re-analysis of the deposited data

How the results depend on the processing

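For PT against AstroEGFR, the 5 VEGF genes kept their sign and their side of the threshold in 64 of 75 refits, lost the *Vegfa* call in 6 and changed sign in 5. The count of VEGF genes past the threshold went from 1 to 0 with all 10 libraries in 1 fit and without AstroEGFR 3 and PT3, and was 0 to 1 with single libraries left out. Features past the threshold went from 152 to 82 with all 10 libraries, 61 with PT1 and PT4 averaged, 475 with the replicate block and 8 without AstroEGFR 3 and PT3, and were 7 to 123 with single libraries left out. *Flt1* changed sign with PT1 and PT4 averaged (-0.18) and was -0.20 to 0.83 with single libraries left out. *Vegfc* was 0.08 without PT2 and 1.24 without AstroEGFR 3, and *Pgf* -2.18 without AstroEGFR 2 and -0.10 without AstroEGFR 3. These are the ends of their ranges with single libraries left out. *Pgf* became 0.20 without AstroEGFR 3 and PT3.

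For AstroEGFR_Zfp423 against AstroEGFR, features past the threshold went from 0 to 2 with no replicate block, and to 12 without libraries 1 and 2 and with no block, and were 0 to 60 with single libraries left out. *Vegfb* (0.26), *Vegfc* (-0.52) and *Pgf* (-1.38) changed sign without libraries 1 and 2. With single libraries left out, *Vegfc* was -0.49 to 1.69 and *Pgf* -1.12 to 2.22. For PT against AstroEGFR_Zfp423, features past the threshold went from 2 to 0 with a pseudocount of 0.1, without filter and with PT1 and PT4 averaged. They went to 28 with all 10 libraries, 20 with the replicate block, 7 without AstroEGFR_Zfp423 1 and 2, and 0 to 629 (without AstroEGFR_Zfp423 3) with single libraries left out. The VEGF genes past it were 0 to 1 with single libraries left out. In those same fits, each without a single library, *Vegfc* was -0.45 to 0.74 and *Flt1* -1.02 to 0.33. Without AstroEGFR_Zfp423 1 and 2, *Vegfc* became 1.07 and *Pgf* 0.18. The replicate block changed no call of a VEGF gene in any comparison. In PT against AstroEGFR it left the counts of the co-receptors and modulators, of the HIF factors and of the signalling genes as they were, and added calls among HIF targets, angiogenic genes and markers (*Col1a1*, *Col1a2*, *Tmem119* and *Aqp4*, all lower). The cause of these shifts was not tested. Where 1 library was left in a group, its spread was taken from the others. Median-ratio scaling moved the median log2 fold change of all features by less than 0.02.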

Other observations

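Other angiogenic ligands and receptors were followed as a list of 14 genes, of which 10 were tested in PT against AstroEGFR, with a median log2 fold change of -0.39 against 0.03 over all features. In limma 2 passed in the higher direction and 1 in the lower one, against 0.318% and 0.922% of all features. With the batch as a replicate block 2 passed in each direction, against 1.19% and 2.68%, *Fgf2* being the gene added (-3.18, SE 0.48, limma adjusted p = 0.0353). *Angpt2*, an angiopoietin that loosens vessels through the receptor TEK, rose from 0.673, 1.62 and 0.535 FPKM in AstroEGFR to 19.7, 61.8, 30.6 and 18.8 FPKM in PT1 to PT4 (log2 fold change 3.99, SE 0.45, limma adjusted p = 0.0109). *Fgf1*, a fibroblast growth factor, rose from 2.73, 3.52 and 0.327 FPKM to 12.6, 39.0, 30.2 and 31.5 FPKM (3.27, SE 0.53, limma adjusted p = 0.0338). *Pdgfb*, which recruits pericytes to vessels, fell from 24.2, 9.37 and 8.59 FPKM to 0.284, 0.0950, 0 and 0.106 FPKM (-3.61, SE 0.40, limma adjusted p = 0.0109). Of 6 pericyte markers 3 were tested. *Pdgfrb*, the receptor of PDGFB, fell (-4.14, SE 0.57, limma adjusted p = 0.0200), while *Anpep* (-0.95, SE 0.71) and *Cspg4* (0.77, SE 1.38) did not pass. The 7 fibroblast and meningeal markers had a median log2 fold change of -3.59, and their part in these values was not tested.

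In AstroEGFR_Zfp423 against AstroEGFR, 0 of 10 tested genes of this list passed in limma, and 0 had an unadjusted p below 0.05. *Angpt2* was at 0.176, 0.357 and 3.46 FPKM in AstroEGFR_Zfp423 1 to 3, on both sides of the AstroEGFR range. The highest of these was below the lowest PT value, 18.8 FPKM. In PT against AstroEGFR_Zfp423, *Angpt2* had a log2 fold change of 3.96 (SE 0.59, limma adjusted p = 0.0908), which did not pass.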
